A study of Mus musculus with 9 samples.

Results

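Mitosis and chromosome segregation genes build and run the machinery that packs, holds and parts the chromosomes of a dividing cell, and their transcripts were followed in endothelial cells (ECs) of metastatic and healthy mouse lungs. The 58 genes are a fixed list of kinetochore, checkpoint, kinase, cohesion, condensin, kinesin, spindle and cytokinesis components. They were found on the array as the probe sets annotated with one of them alone. All 58 were measured, by 129 of 34945 probe sets that name a single gene, among 18161 genes in all.

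The study asked how lung ECs change when breast cancer cells colonize the lung, and which of the changes depend on VEGF, the main growth factor of blood vessels. Its 9 arrays form 3 groups of 3 samples from NSG mice aged 6 to 8 weeks, an immunodeficient strain without mature lymphocytes that accepts human tumors. The anti-VEGF and metastasis IgG groups carried lung metastases of MDA-MB-231-LM2, a lung-seeking line of human breast cancer cells injected intravenously, and were harvested on day 21. The anti-VEGF mice received B20.4.1.1, an antibody that neutralizes VEGF-A, at 10 mg/kg by intraperitoneal injection, 2 doses a week, the metastasis IgG mice received control IgG, and the healthy IgG mice, which had no metastases, also received control IgG. ECs of the whole lung were sorted as CD31+ cells that were CD45-, CD11b-, CD326-, CD140a-, CD140b- and GFP-, so that vessels near and far from tumor nodules are mixed in each sample. The metastatic mice had been chosen for a comparable tumor load by bioluminescence. With 3 arrays per group, p-values measure the spread between these samples only.

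Dividing cells make most of these transcripts in G2 and M phase, after the DNA has been copied. Condensins and topoisomerase II compact the chromosomes, cohesin holds the sister copies together, kinetochores attach them to spindle microtubules moved by kinesins, and the checkpoint delays anaphase until all are attached. The anaphase-promoting complex (APC/C) then releases the sisters, and cytokinesis divides the cell. Most ECs of a healthy adult lung are quiescent, and vessels that grow contain dividing ECs.

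Array values are log2 intensities, so that a difference of 1 is a 2-fold change, and each gene is given by its probe set with the highest mean over the 9 arrays. The labelled cell type was checked first. The 14 endothelial markers averaged 12.8 to 12.9 in every array. Between metastasis IgG and healthy IgG lungs 1 of them (Emcn) was called, against 9.02% of all genes in either direction. Lymphoid markers lay under the background level in 5 of 6 cases (Cd3e, Cd3g, Ms4a1, Ncr1 and Nkg7). This level, 7.60, is the 95th percentile of 78 olfactory and vomeronasal receptor probe sets and stands in for detection calls. Macrophage markers moved with metastasis: the mean of 14 genes ranged from 9.40 to 9.81 in the anti-VEGF arrays, from 9.39 to 9.60 in the metastasis IgG arrays and from 8.32 to 8.67 in the healthy IgG arrays. Of these, 9 were called higher in metastasis IgG lungs than in healthy IgG lungs, against 5.56% of all genes. The median difference was 0.76 over the list. For anti-VEGF against metastasis IgG it was 0.05, with 0 calls in the list and 0.0% of all genes called. Itgam, which encodes the CD11b that the sort selected against, was at or under the background level in every group. The means of Adgre1, C1qa, C1qb, C1qc and Ms4a7 were at or under that level in healthy IgG lungs only. In the anti-VEGF and metastasis IgG groups they lay above it. The part of these cells in the results on the mitosis genes was not tested. Beta-actin read higher in its 3′ than in its 5′ control probe set, a difference used to judge RNA integrity. It was 0.526 to 0.62 in anti-VEGF arrays, 0.488 to 0.555 in metastasis IgG arrays and 0.609 to 0.62 in healthy IgG arrays. The last 2 groups did not overlap. For Gapdh the difference was 0.060 to 0.194 in anti-VEGF, -0.034 to 0.0995 in metastasis IgG and 0.0969 to 0.176 in healthy IgG arrays. There the last 2 groups overlapped. The part of RNA integrity in the results was not tested either. In a bulk sample, fewer dividing cells and less RNA per dividing cell cannot be told apart.

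The first question was how far mitotic transcripts rose in ECs of metastatic lungs. In metastasis IgG lungs, 53 of 58 mitosis genes were called higher than in healthy IgG lungs and 0 lower (limma, Benjamini-Hochberg adjusted p under 0.05 over all genes). Over all 18161 genes, 5.56% were called higher and 3.47% lower. The change was above 0 in 57 of the 58 and below 0 in 1 (Kif15), against 50.2% below 0 of all genes. The median log2 change of the 58 was 1.22, against -0.00 over all genes, or 1.09 with the 14 genes whose healthy IgG arrays were all at or under the background level counted from that level, and 36 of them changed by more than 1 and 9 by more than 2. Cenpf, which builds the outer kinetochore, had the largest change at 2.72 ± 0.21 (SE), followed by the proliferation marker Mki67 (2.51 ± 0.19) and the mitotic kinase Cdk1 (2.39 ± 0.25). The smallest adjusted p was 3.22e-05, that of Nuf2, a kinetochore subunit. In 56 of the 58 genes all 3 metastasis IgG arrays lay above all 3 healthy IgG arrays, which held for 15.4% of all genes. The genes not called were Smc4, Ncaph, Kif4, Kif15 and Dlgap5.

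The second question was whether VEGF blockade altered these transcripts. Between anti-VEGF and metastasis IgG lungs 0 of 58 mitosis genes were called, in either direction, as were 0.0% of all genes, and the smallest adjusted p among the 58 was 0.297. The change was below 0 in 56 of 58, against 51.8% of all genes, and its median was -0.49, against -0.01 over all genes. At an unadjusted limma p under 0.05 there were 39 of 58, all lower in anti-VEGF lungs, against 4.21% of all genes lower and 3.83% higher at that limit. With a change of more than 0.5 in size required besides, a rule added after the data were seen, 25 of 58 were lower and 0 higher, against 0.6% and 0.413% of all genes. In 28 genes every anti-VEGF array lay under every metastasis IgG array, against 6.91% of all genes, and in 1 (Kif15) every one lay above, against 6.21%.

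The third comparison set anti-VEGF lungs against healthy IgG lungs. Of the 58 genes, 32 were called higher and 0 lower, against 4.16% and 2.3% of all genes, and the median change was 0.80, or 0.52 with the same 14 genes counted from the background level. All 58 changes were above 0, against 52.2% below 0 of all genes. In 49 genes every anti-VEGF array lay above every healthy IgG array, against 13.8% of all genes, and in 0 genes below, against 13.1%. All of the 32 were also called under IgG, 21 were called under IgG alone and 5 in neither. The 21 were Cenpe, Cenpa, Cenpn, Spc25, Mad2l1, Cdc25c, Plk1, Aurka, Cdca3, Incenp, Cdc20, Fbxo5, Sgo1, Ncapg, Ncapg2, Cdca2, Hmmr, Ckap2l, Kif20a, Kif23 and Racgap1. The comparisons share arrays, so that they are not independent of each other. Metastasis IgG arrays enter the first and the second, healthy IgG arrays the first and the third, and anti-VEGF arrays the second and the third. Whether the 21 genes responded to anti-VEGF otherwise than the 32 was not tested.

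**Figure D1:**
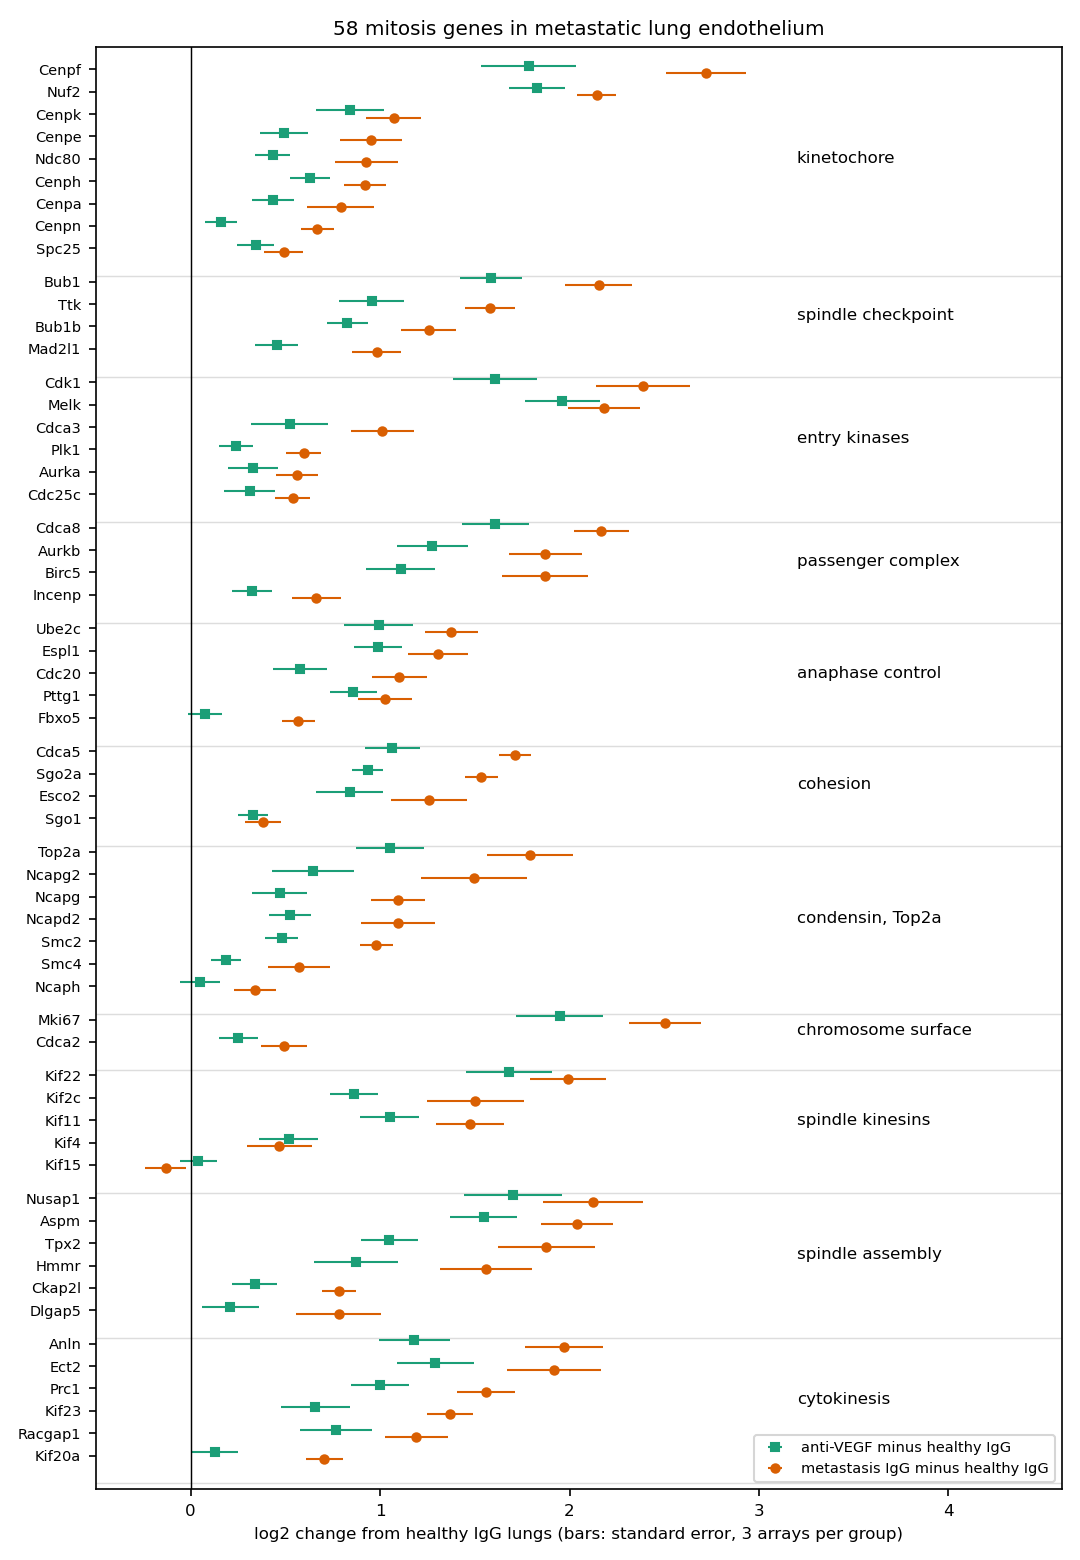
Log2 change from healthy IgG lungs of the 58 mitosis genes, grouped by machine, for anti-VEGF lungs (green squares) and metastasis IgG lungs (orange circles), where bars reach 1 standard error to each side (3 arrays in every group). The anti-VEGF point lies left of the IgG point in all but Kif15 and Kif4, and right of 0 throughout.

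The 3 arrays of a group did not hold the same level. The mean over the 58 genes was 8.94, 9.16 and 8.85 in anti-VEGF replicates 1, 2 and 3, 9.42, 9.70 and 9.24 in metastasis IgG replicates and 8.28, 8.02 and 8.21 in healthy IgG replicates, so the 3 groups did not overlap. Metastasis IgG replicate 2 was the highest of its group in 49 of the 58 genes, against 32.1% of all genes, and replicate 3 the lowest in 47. In the anti-VEGF group, replicate 2 was the highest in 44 genes and replicate 3 the lowest in 37. Without metastasis IgG replicate 2, 51 genes were called between metastasis IgG and healthy IgG lungs, with a median of 1.07, and the median of anti-VEGF against metastasis IgG was -0.35.

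**Figure D2:**
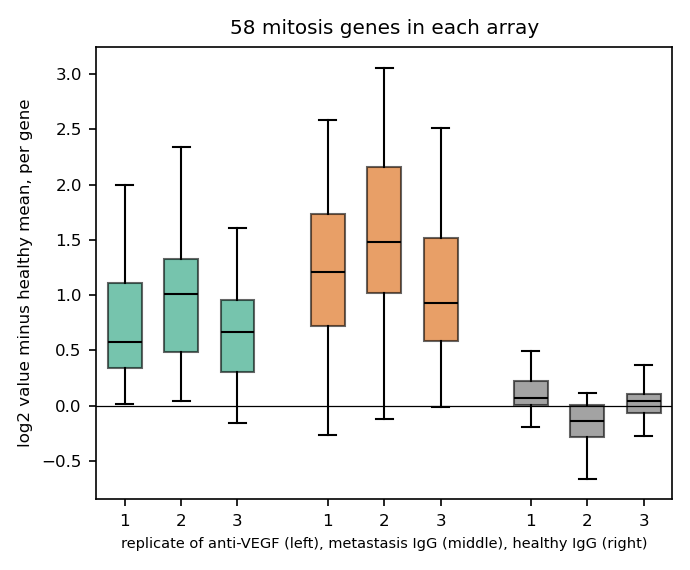
Value of each of the 58 mitosis genes minus its healthy IgG mean (log2), as 1 box per array for the anti-VEGF, metastasis IgG and healthy IgG replicates; boxes span the quartiles, lines are medians and whiskers reach the last gene within 1.5 box lengths. Replicate 2 is the highest of both metastatic groups, and all 6 metastatic boxes lie above the healthy IgG boxes.

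Many of these genes share short promoter elements known from work on the cell cycle. The promoter letters of a few, picked by hand, are shown. The cell cycle homology region (CHR) is bound by the DREAM complex, which silences these genes in resting cells, CCAAT boxes are bound by NF-Y, and E2F sites by E2F factors. RefSeq windows (GRCm38.p6) were at hand for 49 of the 58 genes, 54 windows in all, and the 250 bases before the start were searched on both strands. A CHR (TTTGAA or TTCGAA) stood in 38.9% of these windows against 17.1% of all 32851 windows, and a CCAAT box (CCAAT) in 70.4% against 33.8%. An E2F motif (TTCCCGC or TTGGCGC or TTCGCGC or TTGCCGC) stood in 14.8% against 7.89%. By gene, a CHR was found in 20 of the 49 and a CCAAT box in 34. Matches are in capitals in the windows below, which run 5′ to 3′, and no matches overlap in them. Mki67 (chr7:135716380-135716629, minus strand), Cdk1 (chr10:69352913-69353162, minus strand), Top2a (chr11:99024190-99024439, minus strand) and Cdc20 (chr4:118437344-118437593, minus strand) were called in metastasis IgG lungs and carry CHR and CCAAT matches. Cenpf (chr1:189688087-189688336, minus strand) had the largest change and carries CCAAT matches alone. So does Fbxo5, also called, whose window is not printed. Kif15 (chr9:122950831-122951080, plus strand) and Ncaph (chr2:127133955-127134204, minus strand) were not called, the first with CHR and E2F matches and the second with none. A match is a run of letters only, and whether a factor was bound there was not measured. A link between the motifs and the changes was not tested.
Mki67: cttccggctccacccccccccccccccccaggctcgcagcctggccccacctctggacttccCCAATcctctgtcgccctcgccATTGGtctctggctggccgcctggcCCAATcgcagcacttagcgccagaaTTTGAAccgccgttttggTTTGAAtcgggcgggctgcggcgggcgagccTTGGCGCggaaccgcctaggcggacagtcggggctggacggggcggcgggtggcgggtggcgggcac
Cdk1: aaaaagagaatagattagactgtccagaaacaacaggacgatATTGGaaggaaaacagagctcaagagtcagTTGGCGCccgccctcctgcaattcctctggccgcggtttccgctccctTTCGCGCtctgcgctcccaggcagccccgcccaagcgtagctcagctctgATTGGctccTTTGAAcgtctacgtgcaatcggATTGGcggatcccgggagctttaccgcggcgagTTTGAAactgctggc
Top2a: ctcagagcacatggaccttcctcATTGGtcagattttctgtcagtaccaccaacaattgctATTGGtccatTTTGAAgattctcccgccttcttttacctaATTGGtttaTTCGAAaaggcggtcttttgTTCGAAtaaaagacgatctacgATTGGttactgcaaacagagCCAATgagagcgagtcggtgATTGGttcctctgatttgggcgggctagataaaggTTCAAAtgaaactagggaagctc
Cdc20: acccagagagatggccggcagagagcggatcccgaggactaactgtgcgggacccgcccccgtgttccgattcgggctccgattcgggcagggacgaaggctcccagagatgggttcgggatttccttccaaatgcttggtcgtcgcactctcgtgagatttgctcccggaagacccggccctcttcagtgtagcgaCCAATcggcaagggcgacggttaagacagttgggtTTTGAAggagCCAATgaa
Cenpf: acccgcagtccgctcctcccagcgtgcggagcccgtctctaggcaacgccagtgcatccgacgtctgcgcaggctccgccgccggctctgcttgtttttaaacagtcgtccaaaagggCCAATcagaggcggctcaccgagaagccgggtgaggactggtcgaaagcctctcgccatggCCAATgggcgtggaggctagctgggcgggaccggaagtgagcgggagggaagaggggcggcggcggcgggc
Kif15: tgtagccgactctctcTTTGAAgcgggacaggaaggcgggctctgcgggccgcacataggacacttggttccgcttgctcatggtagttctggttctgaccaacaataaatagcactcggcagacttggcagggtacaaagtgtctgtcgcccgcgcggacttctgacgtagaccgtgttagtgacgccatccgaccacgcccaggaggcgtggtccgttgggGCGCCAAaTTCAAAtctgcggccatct
Ncaph: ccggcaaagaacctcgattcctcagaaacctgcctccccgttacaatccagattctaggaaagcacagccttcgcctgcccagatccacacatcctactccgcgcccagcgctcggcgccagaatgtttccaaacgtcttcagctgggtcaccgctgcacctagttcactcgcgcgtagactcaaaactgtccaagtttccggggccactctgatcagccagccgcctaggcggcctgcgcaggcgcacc

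The chromosome surface holds the most used marker of dividing cells. Both genes of this group were called in metastasis IgG lungs (2 of 2, median 1.50) and 1 of 2 in anti-VEGF lungs. Mki67, which coats mitotic chromosomes and keeps them apart, read 10.73, 11.18 and 10.45 in the anti-VEGF arrays, 11.38, 11.50 and 11.16 in the metastasis IgG arrays and 9.0, 8.38 and 9.15 in the healthy IgG arrays. The healthy IgG arrays lay far below all metastatic arrays, and anti-VEGF replicate 2 reached into the range of the IgG arrays. The adjusted p was 0.00024 for metastasis IgG against healthy IgG, and the change of anti-VEGF against healthy IgG was 1.95 ± 0.23 (adjusted p = 0.00241). Against metastasis IgG, anti-VEGF gave -0.56 ± 0.18 (unadjusted p = 0.0128, adjusted p = 0.473). Cdca2, which brings a phosphatase to chromosomes at mitotic exit, read 8.56, 8.59 and 8.28 in the anti-VEGF arrays, 8.49, 8.95 and 8.71 in the metastasis IgG arrays and 8.28, 8.27 and 8.13 in the healthy IgG arrays. Its rise of 0.49 ± 0.12 in metastasis IgG lungs (adjusted p = 0.0412) had an adjusted p under 0.05 in 10 of 16 alternatives, with a range up to 0.13. It was lost without any single healthy IgG array and without metastasis IgG replicate 2 or 3.

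The kinases and regulators of mitotic entry were all called higher in metastasis IgG lungs (6 of 6, median 0.80), and 2 of 6 in anti-VEGF lungs. Cdk1, the kinase that drives cells into mitosis, read 9.90, 10.20 and 9.49 in the anti-VEGF arrays, 10.52, 11.14 and 10.26 in the metastasis IgG arrays and 8.65, 7.90 and 8.22 in the healthy IgG arrays. The 3 groups did not overlap, with the anti-VEGF arrays between the others. Its change was 2.39 ± 0.25 for metastasis IgG against healthy IgG (adjusted p = 0.000995), 1.61 ± 0.22 for anti-VEGF against healthy IgG (adjusted p = 0.00496) and -0.78 ± 0.24 for anti-VEGF against metastasis IgG (unadjusted p = 0.0108). Melk, a kinase abundant in proliferating cells, was the other gene called in anti-VEGF lungs, with 1.96 ± 0.20 there and 2.18 ± 0.19 under IgG. Plk1, the kinase of centrosome maturation and mitotic exit, read 9.62, 9.62 and 9.42 in the anti-VEGF arrays, 9.99, 9.97 and 9.76 in the metastasis IgG arrays and 9.27, 9.38 and 9.29 in the healthy IgG arrays. Here too the groups stood apart, on a smaller scale. Plk1 rose by 0.60 ± 0.09 in metastasis IgG lungs (adjusted p = 0.00594), and its 0.24 ± 0.09 in anti-VEGF lungs did not pass (adjusted p = 0.162). Cdc25c, the phosphatase that activates Cdk1, had the smallest change of the group. It read 8.32, 7.97 and 7.85 in the anti-VEGF arrays, 8.29, 8.23 and 8.30 in the metastasis IgG arrays and 7.89, 7.70 and 7.61 in the healthy IgG arrays, with anti-VEGF arrays overlapping both other groups, and rose by 0.54 ± 0.09 in metastasis IgG lungs (adjusted p = 0.00986). Aurka, the kinase of the spindle poles, and Cdca3, a trigger of mitotic entry, rose by 0.56 ± 0.11 and 1.01 ± 0.16 in metastasis IgG lungs, calls that were lost with the mean of all probe sets of each gene. That of Aurka was also lost without healthy IgG replicate 1 or metastasis IgG replicate 1 or 2.

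Kinetochore genes were called in 9 of 9 cases in metastasis IgG lungs (median 0.93) and in 5 of 9 in anti-VEGF lungs (median 0.49). With 3 of the 9 at their change from the background level, the medians were 0.79 and 0.43. Cenpf read 9.65, 9.87 and 8.99 in the anti-VEGF arrays, 10.31, 10.78 and 10.23 in the metastasis IgG arrays and 7.90, 7.26 and 7.98 in the healthy IgG arrays. No array of one group reached the next, and the IgG arrays were the highest. Cenpf changed by 1.78 ± 0.25 in anti-VEGF lungs against healthy IgG lungs (adjusted p = 0.00567) and by -0.94 ± 0.23 against metastasis IgG lungs, the largest difference among the 58 (unadjusted p = 0.00298, adjusted p = 0.416). For metastasis IgG against healthy IgG its 2 other probe sets gave 0.69 and 0.18, and the mean of all 1.20. Nuf2, of the Ndc80 complex that grips microtubules, rose by 1.83 ± 0.15 in anti-VEGF lungs and by 2.14 ± 0.10 in metastasis IgG lungs, with healthy IgG arrays under the background level and rises of at least 1.07 and 1.39 from there. Ndc80, its partner, rose by 0.93 ± 0.16 in metastasis IgG lungs and the kinetochore motor Cenpe by 0.95 ± 0.17. Cenph and Cenpk, of the inner kinetochore, rose there by 0.92 ± 0.11 and 1.07 ± 0.14, or by at least 0.33 and 0.51 from the background level. In anti-VEGF lungs they rose by 0.63 ± 0.11 and 0.84 ± 0.18, or by at least 0.038 and 0.28, with 1 anti-VEGF array of each under that level. Cenpn, which reads the centromeric histone Cenpa, read 8.73, 8.77 and 8.68 in the anti-VEGF arrays, 9.22, 9.32 and 9.17 in the metastasis IgG arrays and 8.60, 8.46 and 8.65 in the healthy IgG arrays. The anti-VEGF arrays sat just above the healthy IgG arrays and well below the IgG arrays, with no overlap. Cenpn rose by 0.67 ± 0.09 in metastasis IgG lungs (adjusted p = 0.00284). It had one of the smallest unadjusted p of anti-VEGF against metastasis IgG (0.000231, change -0.51 ± 0.08, adjusted p = 0.297). Against healthy IgG its change was 0.16 ± 0.08 (adjusted p = 0.324). Cenpa rose by 0.79 ± 0.18 in metastasis IgG lungs (adjusted p = 0.0287), a call lost without healthy IgG replicate 1 or 2 or metastasis IgG replicate 1. In anti-VEGF lungs the calls of Ndc80 and Cenpk were each lost without 1 or more single arrays. Spc25, another Ndc80 complex subunit, had the smallest change of the kinetochore genes and read 9.94, 10.12 and 10.09 in the anti-VEGF arrays, 10.27, 10.07 and 10.25 in the metastasis IgG arrays and 9.77, 9.54 and 9.82 in the healthy IgG arrays. Its metastasis IgG arrays stood above the healthy IgG arrays and overlapped the anti-VEGF arrays. The rise was 0.49 ± 0.10 (adjusted p = 0.0224), but a second probe set of Spc25 fell by 0.66, and the call was lost without healthy IgG replicate 1 or 2 and without metastasis IgG replicate 1 or 3.

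Spindle checkpoint genes were called in 4 of 4 cases in metastasis IgG lungs and in 3 of 4 in anti-VEGF lungs. The median in metastasis IgG lungs was 1.42, or 1.17 with 2 of the 4 at their change from the background level. Bub1, the kinase that assembles the checkpoint at kinetochores, read 8.67, 8.46 and 8.28 in the anti-VEGF arrays, 8.93, 9.34 and 8.85 in the metastasis IgG arrays and 7.24, 6.70 and 6.72 in the healthy IgG arrays. The groups did not overlap, and the healthy IgG arrays were all under the background level. Bub1 rose by 2.15 ± 0.18 in metastasis IgG lungs (adjusted p = 0.000363), or by at least 1.44 counted from the background level, and by 1.58 ± 0.16 in anti-VEGF lungs, or at least 0.87. With the mean of its probe sets the first of these was 1.01. Mad2l1, which holds back the APC/C activator Cdc20, read 9.65, 9.27 and 9.32 in the anti-VEGF arrays, 9.86, 10.23 and 9.72 in the metastasis IgG arrays and 9.03, 8.96 and 8.88 in the healthy IgG arrays. Again the anti-VEGF arrays fell between the groups without overlap. Mad2l1 rose by 0.98 ± 0.13 in metastasis IgG lungs (adjusted p = 0.00304), and its change in anti-VEGF lungs was 0.45 ± 0.11 (adjusted p = 0.0518), a value that 4 of 16 alternatives called. The kinase Ttk and the checkpoint protein Bub1b rose by 1.58 ± 0.13 (at least 1.08 from the background level) and 1.26 ± 0.14 in metastasis IgG lungs, and the call of Ttk in anti-VEGF lungs was lost without anti-VEGF replicate 2 or 3 or healthy IgG replicate 2.

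The 4 genes of the chromosomal passenger complex, which corrects faulty attachments, were all called in metastasis IgG lungs, with the highest median of the machines (1.87, or 1.63 with Aurkb at its change from the background level). Aurkb, its kinase, read 8.24, 8.80 and 8.16 in the anti-VEGF arrays, 8.96, 9.38 and 8.66 in the metastasis IgG arrays and 7.43, 6.94 and 7.0 in the healthy IgG arrays. The healthy IgG arrays were under the background level, and 1 anti-VEGF array lay within the IgG range. Aurkb rose by 1.87 ± 0.19 in metastasis IgG lungs (adjusted p = 0.00098), or by at least 1.40 from the background level, and by 1.28 ± 0.19 in anti-VEGF lungs (adjusted p = 0.00672), or at least 0.80. Both probe sets of Aurkb, and those used for Cdca8 and Incenp, have names that mark possible sharing of sequence with other transcripts. The median of 1.87 rests largely on such probe sets. Cdca8, which helps place the complex at centromeres, read 10.39, 10.82 and 10.12 in the anti-VEGF arrays, 11.06, 11.22 and 10.73 in the metastasis IgG arrays and 8.97, 8.61 and 8.93 in the healthy IgG arrays. Its healthy IgG arrays were more than 1 unit under every other array, and anti-VEGF replicate 2 lay within the IgG range. The rise in metastasis IgG lungs was 2.17 ± 0.15 (adjusted p = 0.000142), and 0.77 in its only probe set not so marked. In anti-VEGF lungs that probe set gave 0.36 (adjusted p = 0.0853), so that the call of Cdca8 there was lost. Birc5 (survivin), another member, rose by 1.87 ± 0.23 in metastasis IgG lungs, or by at least 1.75, with 2 of 3 healthy IgG arrays under the background level. Incenp, the scaffold of the complex, read 9.75, 10.07 and 9.73 in the anti-VEGF arrays, 10.18, 10.45 and 9.93 in the metastasis IgG arrays and 9.53, 9.47 and 9.58 in the healthy IgG arrays. Anti-VEGF replicate 2 lay within the IgG range and the other anti-VEGF arrays between the groups. Its rise of 0.66 ± 0.13 (adjusted p = 0.0174) was lost without metastasis IgG replicate 1 or without healthy IgG replicate 1 or 2.

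**Figure D3:**
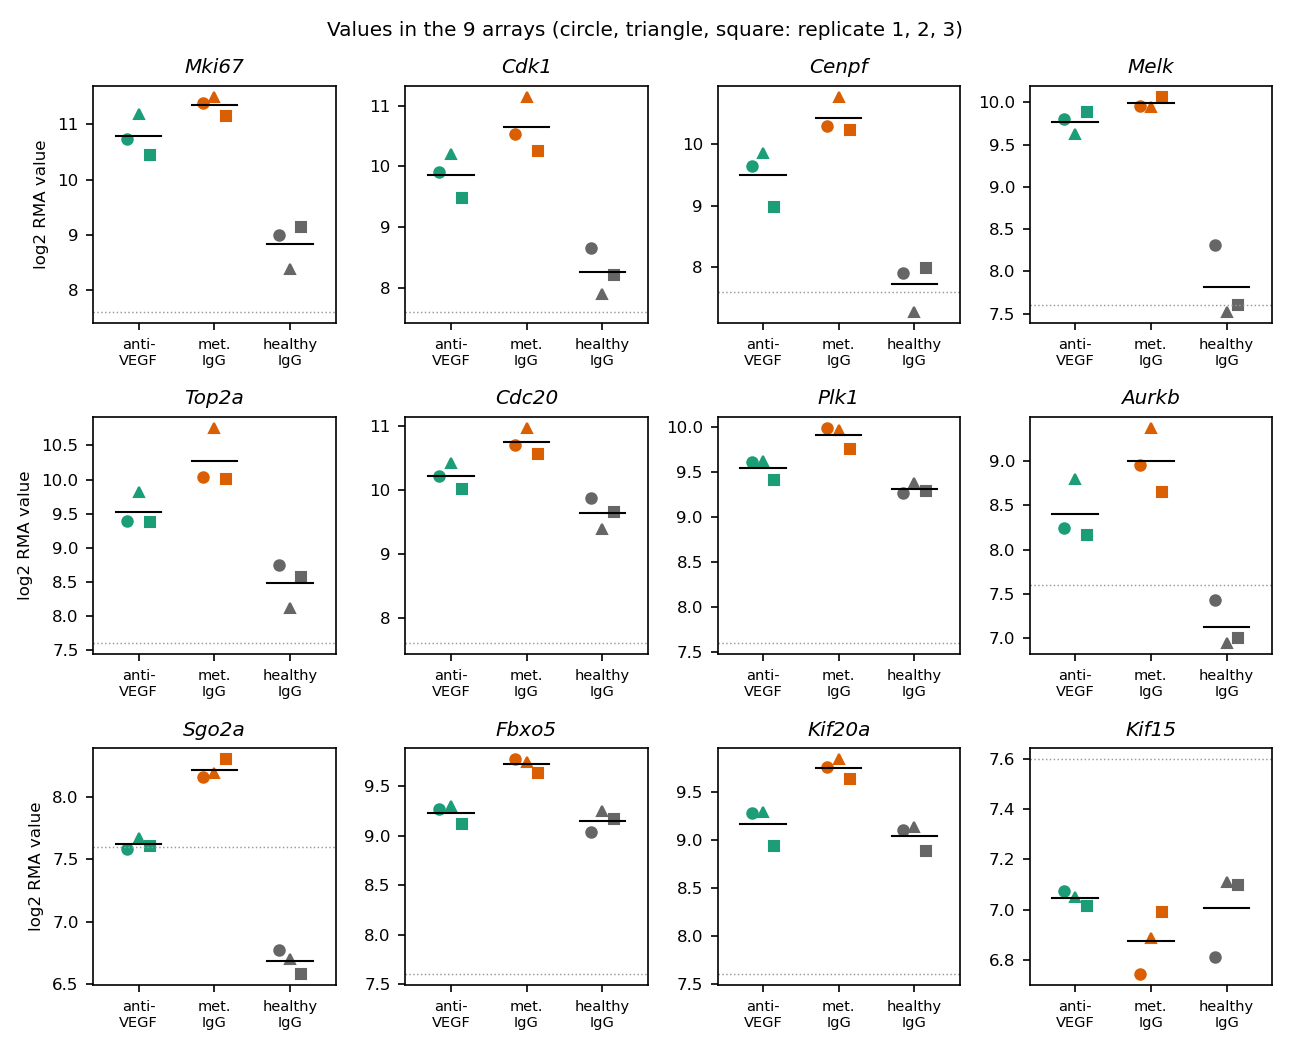
Log2 values of 12 mitosis genes in the 9 arrays, with groups along the horizontal axis (anti-VEGF, metastasis IgG and healthy IgG), 1 symbol per replicate, lines for the group means and a dotted line for the background level of 7.60. Fbxo5 and Kif20a reach healthy IgG values under anti-VEGF, Cdk1 and Cenpf lie between the other groups, and all arrays of Kif15 are under the background level.

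Control of anaphase was called in 5 of 5 genes in metastasis IgG lungs (median 1.10) and in 3 of 5 in anti-VEGF lungs. Cdc20, the activator that turns the APC/C on its targets, read 10.21, 10.41 and 10.01 in the anti-VEGF arrays, 10.69, 10.97 and 10.55 in the metastasis IgG arrays and 9.87, 9.39 and 9.64 in the healthy IgG arrays. The anti-VEGF arrays lay between the other groups, without overlap. Cdc20 rose by 1.10 ± 0.15 in metastasis IgG lungs (adjusted p = 0.00304), and its 0.58 ± 0.14 in anti-VEGF lungs did not pass (adjusted p = 0.054), a value that 5 of 16 alternatives called. Ube2c, the ubiquitin-conjugating enzyme of the APC/C, had the largest change of these genes and read 9.95, 10.23 and 9.57 in the anti-VEGF arrays, 10.44, 10.34 and 10.12 in the metastasis IgG arrays and 9.08, 8.63 and 9.05 in the healthy IgG arrays. Only anti-VEGF replicate 2 entered the IgG range. Ube2c rose by 1.38 ± 0.14 in metastasis IgG lungs (adjusted p = 0.000889) and by 0.99 ± 0.18 in anti-VEGF lungs (adjusted p = 0.0159), the second of which was lost without anti-VEGF replicate 2 or healthy IgG replicate 2. Fbxo5 (Emi1), an inhibitor of the APC/C, read 9.27, 9.30 and 9.11 in the anti-VEGF arrays, 9.78, 9.75 and 9.63 in the metastasis IgG arrays and 9.04, 9.25 and 9.17 in the healthy IgG arrays. Its anti-VEGF arrays mixed with the healthy IgG arrays and lay below all IgG arrays. Fbxo5 rose by 0.57 ± 0.09 in metastasis IgG lungs (adjusted p = 0.00625), whereas anti-VEGF against healthy IgG gave 0.08 ± 0.09 (adjusted p = 0.701) and against metastasis IgG -0.49 ± 0.09 (unadjusted p = 0.0005, adjusted p = 0.344). Pttg1 (securin) and Espl1 (separase), the inhibitor and the protease that cuts cohesin, rose by 1.03 ± 0.14 and 1.31 ± 0.16 in metastasis IgG lungs and by 0.86 ± 0.12 and 0.99 ± 0.13 in anti-VEGF lungs. The 2 other probe sets of Pttg1 gave 0.25, without a call, and 1.16 for the first.

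The genes that establish and protect cohesion were called in 4 of 4 cases in metastasis IgG lungs (median 1.40, or 0.50 with 3 of the 4 at their change from the background level) and in 3 of 4 in anti-VEGF lungs. Sgo2a (shugoshin), which shields centromeric cohesin, read 7.58, 7.67 and 7.60 in the anti-VEGF arrays, 8.16, 8.19 and 8.30 in the metastasis IgG arrays and 6.77, 6.70 and 6.58 in the healthy IgG arrays. The replicates were close and the groups far apart. Sgo2a rose by 1.53 ± 0.09 in metastasis IgG lungs (adjusted p = 5.37e-05), or by at least 0.62 from the background level. Its -0.60 ± 0.08 for anti-VEGF against metastasis IgG had the smallest unadjusted p of the 58 (6.95e-05, adjusted p = 0.297), and against healthy IgG it was called higher (adjusted p = 0.000628). That difference was at least 0.018 from the background level, since the anti-VEGF arrays lay at about this level and 1 of them under it. Cdca5 (sororin), which locks cohesin on DNA, read 8.51, 8.24 and 7.89 in the anti-VEGF arrays, 8.83, 8.93 and 8.81 in the metastasis IgG arrays and 7.06, 7.26 and 7.12 in the healthy IgG arrays. Its healthy IgG arrays were under the background level, and all anti-VEGF arrays lay below all IgG arrays. The rise was 1.71 ± 0.08 in metastasis IgG lungs (adjusted p = 3.66e-05), at least 1.26 from the background level, and 1.07 ± 0.15, at least 0.61, in anti-VEGF lungs. Sgo1, the other shugoshin, read 8.43, 8.54 and 8.44 in the anti-VEGF arrays, 8.45, 8.68 and 8.46 in the metastasis IgG arrays and 8.20, 8.18 and 8.05 in the healthy IgG arrays, with anti-VEGF and IgG arrays overlapping. Its small rise of 0.38 ± 0.09 (adjusted p = 0.041) was lost when any 1 of the 6 arrays was left out. The group means of Esco2, the acetyltransferase that closes cohesin, were under the background level in every group, so no fold is given for it, and its calls were lost with the filter on dim genes.

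Condensin subunits and Top2a were called in 5 of 7 cases in metastasis IgG lungs (median 1.09) and in 3 of 7 in anti-VEGF lungs. Top2a, the topoisomerase that untangles sister chromatids, read 9.39, 9.82 and 9.38 in the anti-VEGF arrays, 10.04, 10.76 and 10.01 in the metastasis IgG arrays and 8.75, 8.11 and 8.58 in the healthy IgG arrays. No groups overlapped, and metastasis IgG replicate 2 stood above the other arrays. Top2a rose by 1.79 ± 0.23 in metastasis IgG lungs (adjusted p = 0.00247) and by 1.05 ± 0.18 in anti-VEGF lungs (adjusted p = 0.0122), with -0.74 ± 0.21 for anti-VEGF against metastasis IgG (unadjusted p = 0.00681). Its 2 other probe sets gave 0.27 and -0.17 for metastasis IgG against healthy IgG, and the mean of all 0.63. Smc2, a core ATPase of condensin, read 10.22, 10.35 and 10.37 in the anti-VEGF arrays, 10.74, 10.91 and 10.79 in the metastasis IgG arrays and 9.86, 9.73 and 9.91 in the healthy IgG arrays. Here the replicates of a group were nearly level and the groups separate. Smc2 rose by 0.98 ± 0.09 in metastasis IgG lungs (adjusted p = 0.000495), and anti-VEGF against metastasis IgG gave -0.50 ± 0.09 (unadjusted p = 0.000398, adjusted p = 0.314). Against healthy IgG its 0.48 ± 0.09 passed (adjusted p = 0.0146) but not without anti-VEGF replicate 2 or 3 or healthy IgG replicate 2. Ncapg, a regulatory subunit of condensin I, read 9.71, 9.56 and 9.93 in the anti-VEGF arrays, 10.41, 10.50 and 10.16 in the metastasis IgG arrays and 9.48, 9.32 and 8.99 in the healthy IgG arrays. Its anti-VEGF arrays lay below all IgG arrays and above all healthy IgG arrays. Ncapg rose by 1.10 ± 0.14 in metastasis IgG lungs (adjusted p = 0.00264), and anti-VEGF against metastasis IgG gave -0.63 ± 0.13 (unadjusted p = 0.000922). Ncapd2, a further condensin I subunit, rose by 1.09 ± 0.20, and Ncapg2, of condensin II, by 1.50 ± 0.28, the second lost without metastasis IgG replicate 1. In anti-VEGF lungs the call of Ncapd2 was lost without anti-VEGF replicate 3 or any single healthy IgG array.

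Smc4 and Ncaph, a core and a linking subunit of condensin, were not called. Smc4 read 10.93, 10.88 and 10.76 in the anti-VEGF arrays, 11.05, 11.67 and 11.01 in the metastasis IgG arrays and 10.70, 10.68 and 10.62 in the healthy IgG arrays. Metastasis IgG replicate 2 was well above the other 8 arrays, and the IgG arrays still did not overlap the healthy IgG arrays. Its change was 0.57 ± 0.16 (adjusted p = 0.071), and 4 of 16 alternatives called it, among them the fit without that replicate (0.36). Ncaph read 10.05, 10.29 and 9.92 in the anti-VEGF arrays, 10.38, 10.58 and 10.16 in the metastasis IgG arrays and 10.08, 10.01 and 10.01 in the healthy IgG arrays. The IgG arrays were again above the healthy IgG arrays, by little in replicate 3. Its change was 0.34 ± 0.11 (adjusted p = 0.104), and it passed without metastasis IgG replicate 3 (0.45).

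Spindle kinesins split. In metastasis IgG lungs 3 of 5 were called (median 1.47), the same 3 as in anti-VEGF lungs. Kif22, which pushes chromosome arms outward, read 9.29, 9.63 and 9.03 in the anti-VEGF arrays, 9.57, 9.76 and 9.55 in the metastasis IgG arrays and 7.89, 7.12 and 7.90 in the healthy IgG arrays. Its healthy IgG arrays lay more than 1 unit below the others, and an anti-VEGF array entered the IgG range. Kif22 rose by 1.99 ± 0.20 in metastasis IgG lungs (adjusted p = 0.000862) and by 1.68 ± 0.23 in anti-VEGF lungs (adjusted p = 0.00477). In its probe set not marked as shared, these changes were 0.46 and 0.21, without a call. Kif11 (Eg5), which separates the spindle poles, rose by 1.47 ± 0.18 in metastasis IgG lungs and Kif2c (MCAK), which takes microtubules apart at kinetochores, by 1.50 ± 0.26. In each, 2 of 3 healthy IgG arrays were under the background level. With these arrays set to that level, the rises were at least 1.23 and 1.34. The call of Kif2c in anti-VEGF lungs was also lost when probe sets of possibly shared sequence were left out, so that 1 of the 3 calls, that of Kif11, was left there. Kif4, a chromosome-bound kinesin of the spindle midzone, read 7.93, 8.59 and 8.37 in the anti-VEGF arrays, 8.36, 8.57 and 7.82 in the metastasis IgG arrays and 7.68, 7.82 and 7.84 in the healthy IgG arrays. The IgG arrays overlapped both other groups, while the anti-VEGF arrays lay above the healthy IgG arrays, the lowest by little. The change of 0.47 ± 0.17 was not called (adjusted p = 0.146), except without metastasis IgG replicate 3 (0.68). Kif15, a partner of Kif11, read 7.07, 7.05 and 7.01 in the anti-VEGF arrays, 6.74, 6.89 and 6.99 in the metastasis IgG arrays and 6.81, 7.11 and 7.10 in the healthy IgG arrays. Every array was under the background level, so no fold is given, and it was not called between metastasis IgG and healthy IgG lungs (adjusted p = 0.531).

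Genes of spindle assembly were called in 5 of 6 cases in metastasis IgG lungs (median 1.72, or 1.28 with 3 of the 6 at their change from the background level) and in 3 of 6 in anti-VEGF lungs. Nusap1, which bundles microtubules at chromosomes, read 9.58, 9.83 and 9.36 in the anti-VEGF arrays, 9.88, 10.32 and 9.83 in the metastasis IgG arrays and 8.26, 7.23 and 8.17 in the healthy IgG arrays. Healthy IgG replicate 2 was the lowest array by far, and the anti-VEGF arrays overlapped the IgG arrays at replicate 2. Nusap1 rose by 2.12 ± 0.26 in metastasis IgG lungs (adjusted p = 0.00228) and by 1.70 ± 0.26 in anti-VEGF lungs (adjusted p = 0.00737), and the mean of its probe sets gave 1.15 for the first. Aspm, of the spindle poles, rose by 2.04 ± 0.19 in metastasis IgG lungs, or by at least 1.55 from the background level. Hmmr, a spindle adaptor, rose there by 1.56 ± 0.24, or by at least 1.01. Tpx2, the activator of Aurka, rose by 1.88 ± 0.26, or by at least 1.77, with 2 of 3 healthy IgG arrays under the background level. Ckap2l, a spindle pole protein, rose by 0.78 ± 0.09. Dlgap5 (HURP), which stabilizes kinetochore fibers, was the exception and read 7.80, 7.97 and 7.34 in the anti-VEGF arrays, 8.42, 8.72 and 7.69 in the metastasis IgG arrays and 7.52, 7.45 and 7.52 in the healthy IgG arrays. IgG replicates 1 and 2 were high and replicate 3 was close to the anti-VEGF and healthy IgG arrays. Its 0.78 ± 0.22, at least 0.68 from the background level, was not called (adjusted p = 0.0713), and without that replicate it was 1.07 and passed.

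Cytokinesis genes were called in 6 of 6 cases in metastasis IgG lungs and in 3 of 6 in anti-VEGF lungs. The median in metastasis IgG lungs was 1.46, or 1.32 with Ect2 at its change from the background level. Anln (anillin), the scaffold of the contractile ring, read 8.63, 8.98 and 8.48 in the anti-VEGF arrays, 9.55, 9.79 and 9.13 in the metastasis IgG arrays and 7.71, 7.12 and 7.72 in the healthy IgG arrays. The 3 groups did not overlap. Anln rose by 1.97 ± 0.21 in metastasis IgG lungs (adjusted p = 0.00102) and by 1.18 ± 0.19 in anti-VEGF lungs (adjusted p = 0.00881), with -0.79 ± 0.18 for anti-VEGF against metastasis IgG (unadjusted p = 0.00223). The mean of its probe sets gave 1.10 for the first. Kif20a, a kinesin of the spindle midzone, read 9.28, 9.29 and 8.93 in the anti-VEGF arrays, 9.76, 9.84 and 9.63 in the metastasis IgG arrays and 9.10, 9.13 and 8.88 in the healthy IgG arrays. Its anti-VEGF arrays mixed with the healthy IgG arrays, and all 3 lay below the IgG arrays. Kif20a rose by 0.71 ± 0.10 in metastasis IgG lungs (adjusted p = 0.00394). Anti-VEGF against healthy IgG gave 0.13 ± 0.12 (adjusted p = 0.607), and against metastasis IgG -0.58 ± 0.12 (unadjusted p = 0.00103, adjusted p = 0.366). Prc1, which bundles the midzone, rose by 1.56 ± 0.15 in metastasis IgG lungs, the exchange factor Ect2, which starts the furrow, by 1.92 ± 0.25 (at least 1.27 from the background level), and Kif23 and Racgap1, which together form centralspindlin, by 1.37 ± 0.12 and 1.19 ± 0.17.

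**Figure D4:**
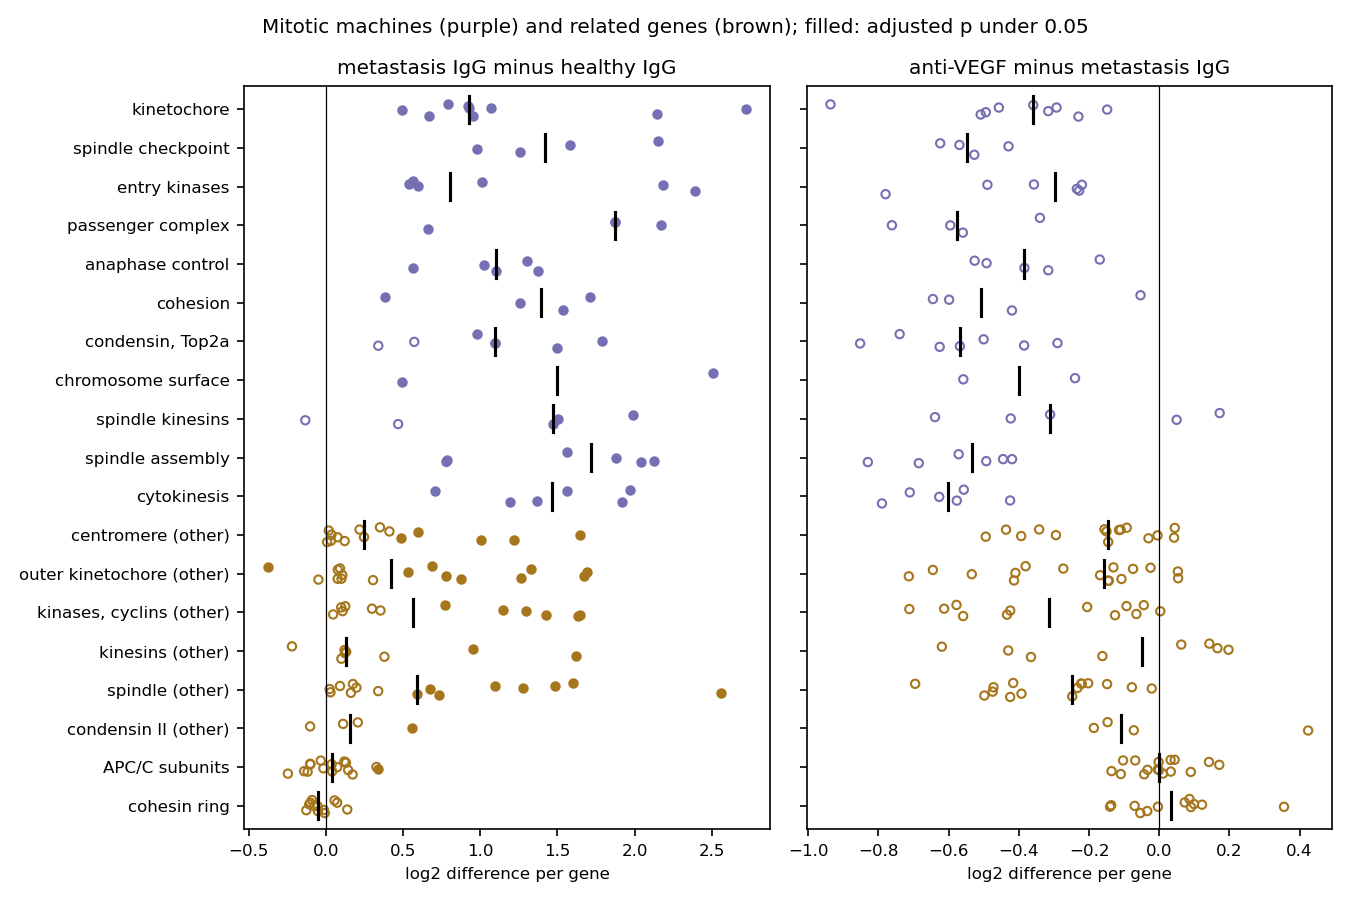
Log2 difference of each gene between metastasis IgG and healthy IgG lungs (left) and between anti-VEGF and metastasis IgG lungs (right), with 1 point per gene, filled where the adjusted p was under 0.05 and a bar at the median of each group. The medians of the 11 machines of the 58 genes (purple) lie right of 0 on the left panel and left of 0 on the right, with Kif15 as the single gene left of 0 on the left panel, and Kif15 and Kif4 right of 0 on the right panel, while the medians of APC/C subunits and the cohesin ring (brown) lie near 0 on both.

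Set beside the 58 were 98 other genes of mitosis, in 8 groups. Of these, 31 were called higher and 1 lower in metastasis IgG lungs than in healthy IgG lungs, against 5.56% and 3.47% of all genes. Their median change was 0.13. In anti-VEGF lungs 22 were called higher than in healthy IgG lungs and 0 lower, against 4.16% and 2.3% of all genes. The 22 became 13 without anti-VEGF replicate 2 or healthy IgG replicate 3, and 14 without healthy IgG replicate 2. Between the metastatic groups 0 were called, and 75 of 98 were below 0, against 51.8% of all genes. Calls were many among other kinases and cyclins (6 of 12), spindle genes (8 of 15) and the outer kinetochore (8 higher, 1 lower of 16). Ccna2 and Ccnb2, cyclins that partner Cdk1, rose by 1.65 ± 0.21 and 1.63 ± 0.20 in metastasis IgG lungs and by 1.07 ± 0.23 and 1.21 ± 0.19 in anti-VEGF lungs. Cep55, which acts in the last step of cell separation, rose by 2.56 ± 0.18 under IgG and 1.86 ± 0.24 under anti-VEGF. Trip13, an ATPase that recycles checkpoint proteins, rose by 1.69 ± 0.23, the kinesin Kif20b by 1.62 ± 0.17 and Cenpi, of the inner kinetochore, by 1.64 ± 0.16 in metastasis IgG lungs, and by 1.05 ± 0.13, 1.19 ± 0.15 and 1.15 ± 0.13 in anti-VEGF lungs. The healthy IgG arrays of Kif20b and Cenpi were all under the background level, and from there the rises were at least 1.12 and 0.91 in metastasis IgG lungs and at least 0.69 and 0.41 in anti-VEGF lungs. Ska3, a microtubule coupler of the outer kinetochore, was the only one called lower (-0.37 ± 0.08, adjusted p = 0.0288), and this call was lost without healthy IgG replicate 1, 2 or 3 and without metastasis IgG replicate 1 or 3.

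Other centromere genes were called higher in 5 of 15 cases in metastasis IgG lungs and other kinesins in 2 of 8, against 5.56% of all genes. Of 16 APC/C subunits, 1 (Anapc15, 0.34 ± 0.08) was called higher in metastasis IgG lungs, near the share of all genes, with a median of 0.04. Of 12 genes of the cohesin ring and its loaders, 0 were called, with a median of -0.05. At an unadjusted limma p under 0.05 there were 0, against 12.5% of all genes higher and 10.8% lower. Among 4 genes of condensin II, Ncapd3 was called under IgG (0.56 ± 0.10), and Mcph1, a regulator of condensin II, in anti-VEGF lungs (0.63 ± 0.11). Their difference from the 58 genes was not tested.

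The choice of probe set matters for these values. Of the 129 probe sets, 84 were called higher and 1 lower in metastasis IgG lungs, against 4.43% and 2.98% of all 34945. Of 104 above the background level in at least 1 group, 81 were called higher and 1 lower, and of the 25 others 3 were called higher. Above the background level, the probe sets of 2 genes disagreed in sign. The second probe set of Spc25 fell by 0.66 (adjusted p = 0.00548), and 1 of the 3 of Top2a gave -0.17, without a call (adjusted p = 0.468). Between anti-VEGF and metastasis IgG lungs, 112 of the 129 were below 0 and 0 were called. Between anti-VEGF and healthy IgG lungs, 48 were called higher and 0 lower, against 3.32% and 2.09%.

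**Figure D5:**
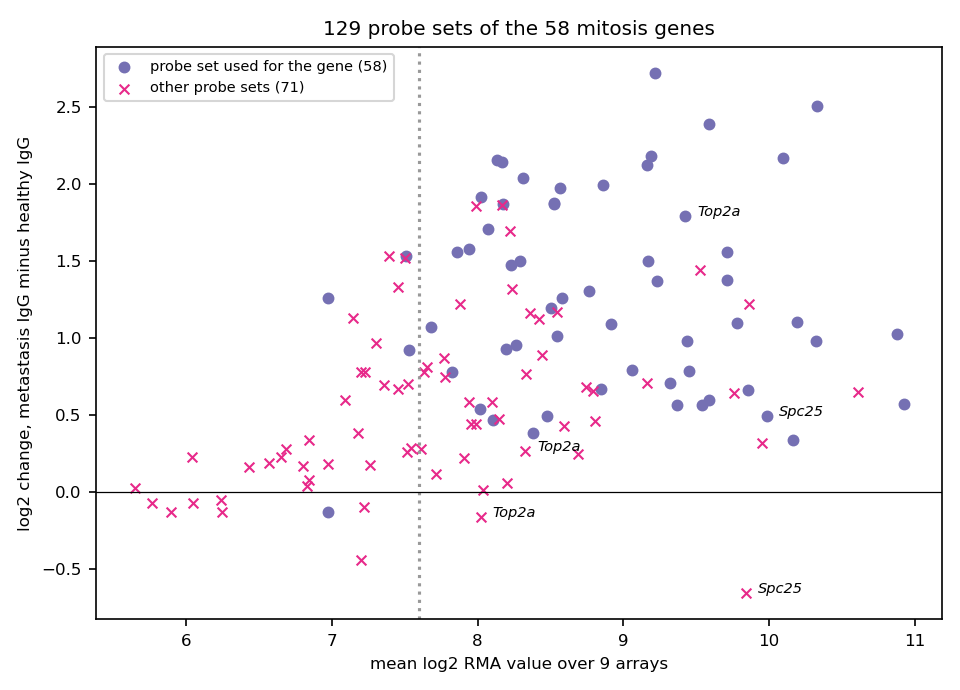
Log2 change of metastasis IgG against healthy IgG lungs (vertical) against the mean log2 value over 9 arrays (horizontal) for the 129 probe sets of the 58 genes, with the probe set used for each gene as a circle and the other 71 as crosses; the dotted line is the background level. Among probe sets right of the line, the second one of Spc25 and one of Top2a lie below 0.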

How the data were processed

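Gene expression was measured on Affymetrix whole-genome mouse arrays, from 1 ng of total RNA per sample of sorted lung ECs amplified with a 3′ IVT kit. The deposited values are log2 intensities, which the authors normalized by RMA in Chipster over the arrays, and they were used as they are. RMA sets the overall distribution of all arrays equal, so that levels are relative to the other genes of an array, and signals near background are compressed. No per-array depth exists for arrays, and their number limits the precision. All 9 columns of values were used.

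Of 45101 probe sets, 9211 without a gene name here, 932 of several genes and 64 controls were left out of gene tests (the controls lie in part among the unnamed). The remaining 34945 gave 18161 genes, with 1 probe set standing for each, the one whose 9-array mean was highest. Symbols were updated through Entrez identifiers. The 2 groups of a comparison (6 arrays) were fitted by lmFit and eBayes of limma 3.58.1 (R 4.3.3) without a block, with Benjamini-Hochberg adjustment over all genes and calls at adjusted p under 0.05. Unadjusted p-values are from the same limma fits. Errors are standard errors of the difference of 2 group means of 3 arrays. Lists are described by counts and medians, without a test. The script was tested on simulated data.

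The 58 genes, the machines, the 98 related genes and the marker lists (endothelial, macrophage, neutrophil, erythroid, megakaryocyte, lymphoid, epithelial, fibroblast, mural, mesothelial and meiosis genes) were chosen with earlier results of these data known. Values in every array are given for Mki67, Cdk1, Top2a, Plk1, Aurkb and Cdc20, for the largest and smallest change of each machine, the 6 smallest p of anti-VEGF against metastasis IgG, all genes not called, and genes whose probe sets disagree. Other genes named were chosen after their values were seen, and of the related genes the called one of largest change in each group was named. Alternatives were a joint fit of the 9 arrays, a block for replicate number, dropping genes under the background level, averaging all probe sets of a gene, dropping probe sets whose suffix (_x_at or _s_at) marks shared sequence, testing every probe set singly, median centring, repeated quantile normalization, eBayes with trend and robust options, array weights, thresholds of the kind the study set for a selection of secreted genes (0.75 in log2 change, 0.05 in p, 0.25 in adjusted p), and omitting arrays one by one. A threshold of 0.5 in log2 change with 0.05 in unadjusted p was added after the data were seen. Promoter windows are RefSeq (GRCm38.p6). Plots were made with matplotlib 3.10.9 (Python 3.11.15).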

Additional observations from a re-analysis of the deposited data

How the results depend on the processing

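Counts of called mitosis genes stayed within 1.5 times of the reported ones under every alternative planned: 44 to 54 for metastasis IgG against healthy IgG (reported 53), 25 to 39 for anti-VEGF against healthy IgG (32) and 0 for anti-VEGF against metastasis IgG. At a change over 0.5 in size with an unadjusted p under 0.05, a rule without adjustment chosen after seeing the data, 52, 37 and 25 (lower) were called, with 9 related genes lower in anti-VEGF than in metastasis IgG lungs. With each array left out in turn they were 47 to 53, 25 to 32 and 0 to 0, and the medians 1.07 to 1.37, 0.59 to 0.85 and -0.58 to -0.35. The mean of all probe sets of a gene gave a median of 0.92 for metastasis IgG against healthy IgG and 0.50 for anti-VEGF against healthy IgG, and leaving out probe sets of shared sequence gave 0.58 for the second. Calls of related genes ran from 24 to 32 (reported 31), 13 to 20 (22) and 0 to 0 with arrays left out, and 13 were higher in anti-VEGF than in healthy IgG lungs at the thresholds on log2 change. The single lower call (Ska3) became 0 with the replicate block, with trend and robust settings and at those or the added thresholds, 2 with the mean of probe sets, and 0 to 1 with arrays left out. Signs turned for Spc25 with the mean of probe sets (-0.083 for metastasis IgG against healthy IgG, 0.10 for anti-VEGF against metastasis IgG). In anti-VEGF against metastasis IgG they turned for Sgo1 (0.011 with the mean of probe sets, and -0.094 to 0.022 with arrays left out, above 0 without metastasis IgG replicate 2) and for Kif4 (-0.16 to 0.23, below 0 without metastasis IgG replicate 3 or anti-VEGF replicate 2). In anti-VEGF against healthy IgG they turned for Ncaph (-0.051 to 0.13, below 0 without anti-VEGF replicate 2) and Kif15 (-0.058 to 0.091, below 0 without healthy IgG replicate 1). None of these was past the threshold after turning, and causes were not tested. Over all genes, samples of the same replicate number did not deviate together (correlations -0.08 to 0.02, against -0.15 to 0.18 for different numbers). In most of the 58 genes, however, replicate 2 was the highest of both metastatic groups. Whether the numbers pair the samples is therefore not settled. With the number as a block, 50 genes were called for metastasis IgG against healthy IgG (without Cenpa, Sgo1 and Cdca2), 32 for anti-VEGF against healthy IgG (without Ndc80 and with Kif23) and 0 for anti-VEGF against metastasis IgG. Genes near the background level limit what can be read: 14 of the 58 had all 3 healthy IgG arrays at or under it.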

Other observations

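Genes of meiosis share part of the machinery of chromosome segregation. Among 12 of them, 0 were called in metastasis IgG against healthy IgG lungs, and their median was -0.07. Of all genes, 5.56% were called higher and 3.47% lower. An unadjusted limma p under 0.05 was reached by 3 of the 12, against 12.5% of all genes higher and 10.8% lower. Counts this small do not set the 12 apart from all genes. Of the 12, 10 lay at or under the background level in every group (Dmc1, Hormad1, Meikin, Rec8, Smc1b, Spo11, Stag3, Syce1, Sycp1 and Sycp2), among them Rec8, Stag3 and Smc1b, the cohesin subunits used in meiosis.

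Markers of other cell types moved in part with metastasis. Of all genes, 5.56% were called higher and 3.47% lower in metastasis IgG lungs. At an unadjusted limma p under 0.05 the shares were 12.5% and 10.8%. Whether 1 or 2 calls in lists this short differ from these shares was not tested. In metastasis IgG lungs against healthy IgG lungs, the collagen genes Col1a1 (1.48), Col1a2 (1.44) and Col3a1 (0.98) of the fibroblast list were called higher and Inmt lower (-1.06), of 9 genes. Of 9 mural genes Pdgfrb (1.18) and Rgs5 (1.06) were called higher, of 12 epithelial genes Sftpb (0.92) and Sftpd (1.18), of 8 neutrophil genes S100a9 (0.65) and of 4 mesothelial genes Wt1, whose mean was at or under the background level in every group, so that no fold is given. Among 8 erythroid genes Slc4a1 was higher (at least 1.41, with the healthy IgG arrays under the background level) and Hbb-b2 lower (-1.45), among 5 megakaryocyte genes Ppbp (-0.54) and Gp5 were lower, the second with 2 of 3 metastasis IgG arrays at or under the background level, and of 6 lymphoid genes 0 were called, with 1 at an unadjusted p under 0.05. Between anti-VEGF and metastasis IgG lungs 0 genes of these lists were called, as were 0.0% of all genes. Their part in the results on the mitosis genes was not tested.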
